A study of Equus caballus with 4 samples.

Results

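The genes of the proteasome were examined in equine satellite cells. Members were the gene probes of the array whose name is PSMA to PSMG followed by a number, or POMP. The rule uses names and no measured value, though it was set with earlier results of these data known. There were 46 such genes, with 88 probes, among 15085 named genes on the array. Of these, 44 genes with 86 probes were well above background and were tested. The exceptions were PSMA8, the testis form of an alpha subunit, which was above background on 0 arrays in the treated channel and on 2 in the control channel, and PSMB11, the thymus form of a catalytic subunit, which was above background on no array in either channel. All 86 tested probes were above background in both channels of all 4 arrays.

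Satellite cells, the stem cells of skeletal muscle, came from m. semitendinosus of young stallions and were at day 3 of differentiation. GO-treated cells received gamma-oryzanol (GO, plant sterol ferulates of rice bran) at 0.125 µM for 24 h and H2O2 at 3 mM during the last 1 h. GO was left out in the control cells. Whether H2O2 was also given to them is not stated in the labels, whereas the methods of the study describe an exposure to H2O2 and to the GO solvent. According to the methods, 1 primary cell line was chosen for culture, so that the 4 replicates stand for cultures and not for horses. Each of the 4 arrays, all on 1 slide, held GO-treated RNA in the red dye and control RNA in the green dye. The dyes were not swapped on any of them, and dye and treatment cannot be told apart for any gene below. The control label ends in the same replicate number on all 4 arrays, so that separate control cultures are not certain, and p-values measure only the spread between these arrays. All values are log2 ratios of GO-treated over control, and errors are SDs over the 4 arrays.

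The proteasome is the protease that breaks down proteins tagged with ubiquitin. Its 20S core is a barrel of alpha rings, which gate the entry, and beta rings, which hold the catalytic sites. The 19S regulator caps the barrel, with a base of ATPases that unfold the substrate and a lid that removes ubiquitin. In cells exposed to interferon, induced subunits replace the catalytic ones to form the immunoproteasome, and PA28 activators can take the place of the 19S cap. Dedicated chaperones assemble the particle. In muscle the proteasome carries much of the turnover of contractile proteins, and oxidised proteins are among its substrates.

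The readings rest on 60-base probes, and 8 of them are shown to set the bases read beside the ratios. The probes of PSMA7 gave like values, whereas those of PSMB4 fell on both sides of the threshold. Positions are in EquCab1, the build of the file headers. Each printed probe had at least 1 reading frame without a stop codon, and exons and introns were not assigned. The first and the last of the 5 probes of PSMA7 lie at chr22:48097495-48098004 and chr22:48097491-48098000 on the minus strand. Each of these 60-base probes spans 510 bases of the build. The first and the last of the 5 probes of PSMB4 lie on the unplaced sequence at chrUn:80623527-80623586 and chrUn:80623543-80623602 on the plus strand. Capitals mark the bases that both probes of a gene share, 56 for PSMA7 and 44 for PSMB4.
PSMA7 first: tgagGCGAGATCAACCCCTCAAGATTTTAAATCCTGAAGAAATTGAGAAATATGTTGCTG
PSMA7 last: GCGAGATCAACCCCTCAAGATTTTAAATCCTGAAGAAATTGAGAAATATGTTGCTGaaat
PSMB4 first: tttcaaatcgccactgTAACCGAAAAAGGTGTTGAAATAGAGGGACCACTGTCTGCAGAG
PSMB4 last: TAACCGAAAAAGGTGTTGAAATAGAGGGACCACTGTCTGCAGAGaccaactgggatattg

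The comparison of catalytic subunits with their induced counterparts rests on 1 probe each for PSMB5 and PSMB8 and for PSMB7 and PSMB10, printed here in lower case. The probes lie at chrUn:181516299-181517072 (PSMB5, plus strand), chr20:26852202-26852418 (PSMB8, minus strand), chr25:10283174-10283233 (PSMB7, plus strand) and chr3:18195257-18195443 (PSMB10, minus strand). Those of PSMB5, PSMB8 and PSMB10 span 774, 217 and 187 bases of the build.
PSMB5: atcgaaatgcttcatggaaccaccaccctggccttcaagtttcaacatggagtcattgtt
PSMB8: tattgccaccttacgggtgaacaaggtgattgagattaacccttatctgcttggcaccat
PSMB7: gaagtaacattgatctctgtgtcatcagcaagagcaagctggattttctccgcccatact
PSMB10: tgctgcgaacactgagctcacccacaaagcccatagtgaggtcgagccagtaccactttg

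The share of gene spots detected above background ranged over the arrays from 54.9% to 61.3% for control and from 56.7% to 61.4% for GO-treated RNA. The arrays correlated across tested probes with r from 0.174 to 0.697. The 8 muscle markers on the array were above background in all readings, and 4 of them were higher in GO-treated cells (TNNT3, MYOG, CKM and MYH3). Their summed signal ranged from 139700 to 154100 in the control channels and from 163700 to 193500 in the treated channels. Of the fibroblast list 4 of 5 genes were above background. The summed signals of the list were 149700 to 180600 in control and 174900 to 198100 in GO-treated cells. Taken within arrays 1 to 4, the log2 ratio of these sums was −0.002, −0.04, 0.40 and 0.13. LUM was lower while THY1 was higher, and COL3A1, the brightest of the list, and DCN did not pass the threshold. Of the leukocyte markers reported here, CD3E was not above background in any reading, and CD68 was above background and did not pass the threshold. None of the 4 endothelial and 2 adipocyte genes was above background. In such bulk RNA fewer cells of a type and less RNA per cell cannot be told apart, and the part of these markers in the results below was not tested.

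Of the proteasome genes 13 fell in GO-treated cells, by small amounts and mostly in the core and the lid, 2 induced catalytic subunits rose, and 29 did not pass the test. A gene passed the threshold where limma's moderated test across all 24229 tested probes gave a Benjamini-Hochberg adjusted p under 0.05, and each gene was read at its brightest tested probe. The share that fell was 29.5% of the 44 genes and the share that rose was 4.55%. Among the 8605 named genes tested the share that fell was 8.65% and the share that rose was 8.73%. Among the 2513 named genes with a mean log2 signal of at least 10, the range in which most members lie, these shares were 13.4% and 9.51%. The mean ratio was below 0 for 35 of the 44 genes, and 21 were below 0 on every array (47.7%, against 23.8% of all named genes). The median of the members was −0.08, with −0.09, −0.04, −0.13 and −0.12 on arrays 1 to 4, against −0.01 over all named genes. Neither this comparison nor that of the signs was matched for signal. Among the genes that passed, only PSMA7 changed by at least 1.3-fold. The calls depended on single arrays. Leaving out array 1, 3 or 4 left 0 of the 15 genes past the threshold (limma, with 18, 17 and 19 of the 44 at an unadjusted p under 0.05), and without array 2 it was 12 of the 15 (not PSMA3, PSMB1 and PSMB4), with PSMG1 passing in addition. The methods' t-test on the same values called 0 members after Benjamini-Hochberg adjustment and 19 at an unadjusted p under 0.05.

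**Figure D1:**
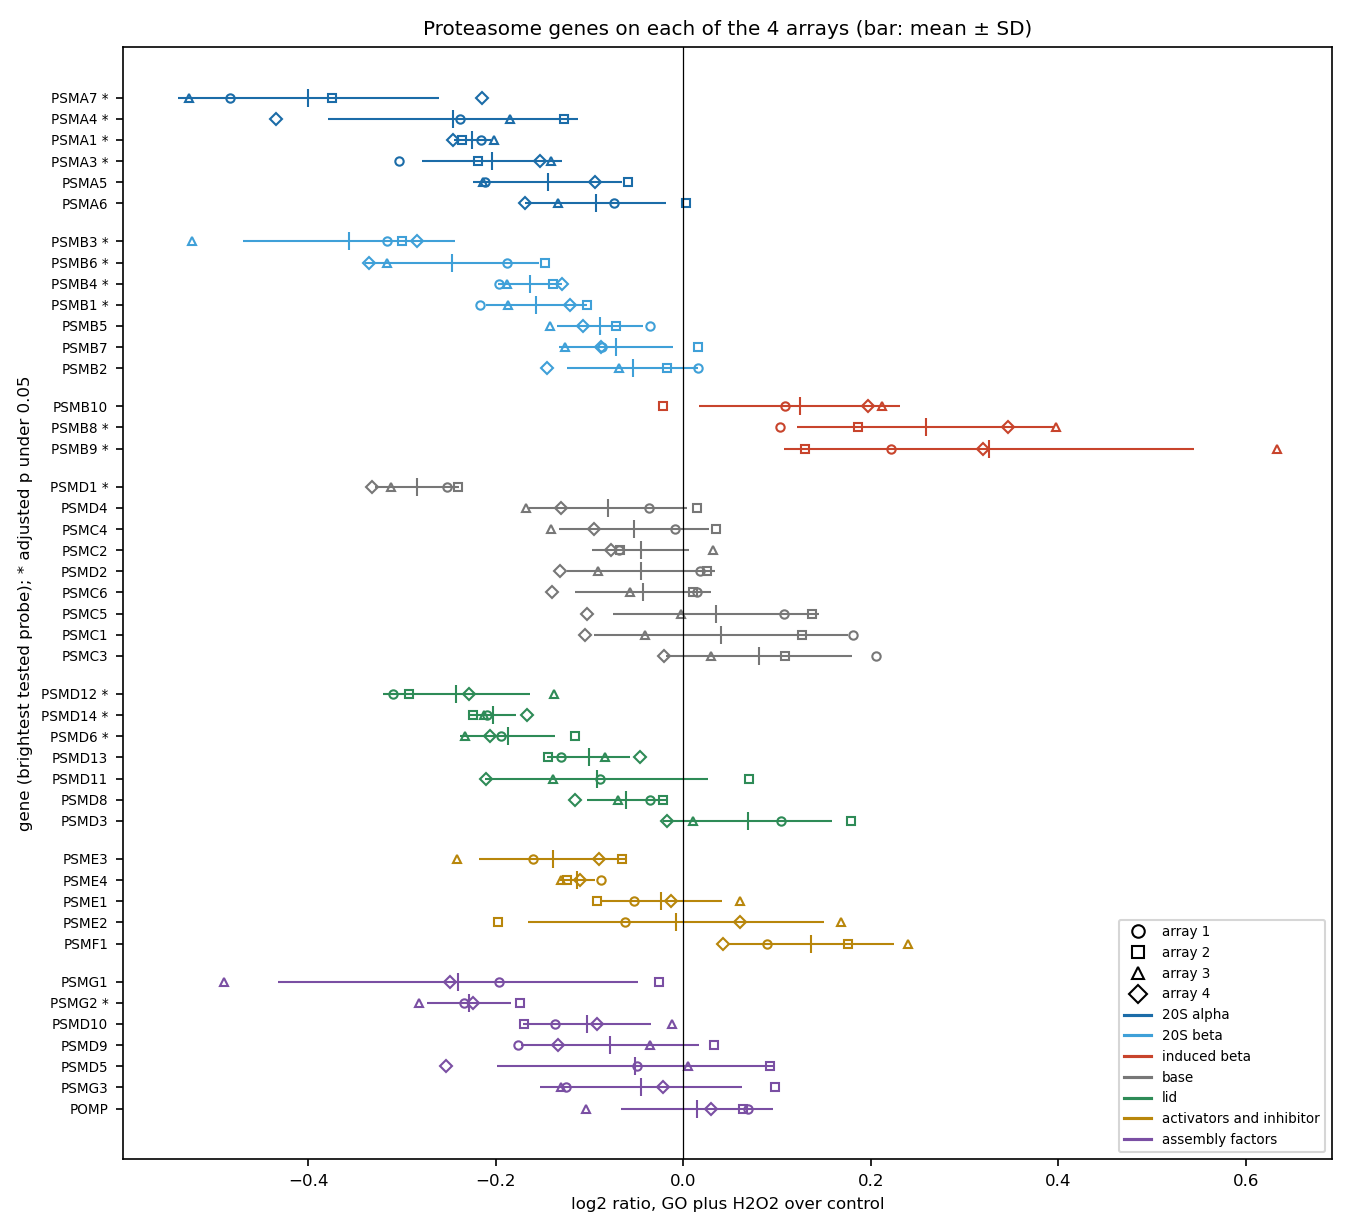
Log2 ratio of GO-treated over control cells (x axis) for the 44 tested proteasome genes (y axis, grouped by role and sorted by mean within a group). Open symbols are the 4 arrays, the tick and bar are the mean ± SD, and an asterisk marks a limma adjusted p under 0.05. The 13 genes of the constitutive core lie to the left of 0 on average and the 3 induced beta genes to the right.

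The alpha subunits, which form the outer rings of the core and its gate, gave the lowest median of all groups (−0.21, 6 genes). On arrays 1 to 4 the group median was −0.23, −0.17, −0.19 and −0.19. All 6 means were below 0 and 4 genes fell (66.7%). Among all named genes 8.65% fell, and 13.4% of those with a log2 signal of at least 10. PSMA7 had the largest fall, with −0.48, −0.37, −0.53 and −0.21 on arrays 1 to 4, a mean of −0.40 ± 0.14 and an adjusted p of 0.0166 (limma). That is 1.32-fold lower, and array 4 showed a smaller difference than the others. The 5 probes of PSMA7, all within the stretch printed above, ran from −0.40 to −0.42 and all passed the threshold. One of them read −0.40, −0.36, −0.51 and −0.40, so that the smaller difference on array 4 was not seen by every probe. PSMA4 read −0.24, −0.13, −0.18 and −0.43, with a mean of −0.25 ± 0.13 (adjusted p = 0.0364, limma). PSMA1 had a narrow spread, with −0.22, −0.24, −0.20 and −0.25 and a mean of −0.23 ± 0.020 (adjusted p = 0.0194, limma). PSMA3 read −0.30, −0.22, −0.14 and −0.15 (mean −0.20 ± 0.074, adjusted p = 0.0309, limma). PSMA5 and PSMA6 did not pass, at −0.14 ± 0.080 and −0.09 ± 0.075, although PSMA5 was below 0 on all 4 arrays.

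The constitutive beta subunits had a median of −0.16 over 7 genes, with −0.19, −0.10, −0.19 and −0.13 on the arrays. Of these genes 4 fell (57.1%, against 8.65% of all named genes). PSMB3, a structural subunit, read −0.32, −0.30, −0.52 and −0.28, with a mean of −0.36 ± 0.11, which is 1.28-fold lower (adjusted p = 0.0166, limma). Array 3 stood below the other three, which lay close together. PSMB6, the caspase-like catalytic subunit, read −0.19, −0.15, −0.32 and −0.34 (mean −0.25 ± 0.093, adjusted p = 0.0249, limma). PSMB4, a structural subunit, read −0.20, −0.14, −0.19 and −0.13 (mean −0.16 ± 0.034, adjusted p = 0.0360, limma). PSMB1 had −0.22, −0.10, −0.19 and −0.12 (mean −0.16 ± 0.054, adjusted p = 0.0448, limma), and its call was lost in 11 of the 17 alternative settings. The remaining catalytic subunits did not pass. PSMB5, the chymotrypsin-like site, was at −0.09 ± 0.046 (adjusted p = 0.153, limma, below 0 on all 4 arrays) and PSMB7, the trypsin-like site, at −0.07 ± 0.061 (adjusted p = 0.257, limma). Thus all 13 tested genes of the constitutive core had a mean below 0, as did 4568 of the 8605 named genes. On every array 10 of the 13 were below 0 (76.9%, against 23.8% of all named genes).

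PSMB2 and PSMB4 were read differently by different probes. The brightest probe of PSMB2 gave −0.05 ± 0.070 (adjusted p = 0.40, limma), with 0.02, −0.02, −0.07 and −0.15 on the arrays. Its other probe, which starts at base 675 of the transcript and not at base 740, gave −0.25, −0.26, −0.34 and −0.33 and passed the threshold (−0.29 ± 0.045, adjusted p = 0.0153, limma). The arrays of these probes did not overlap. In PSMB4 the probes that start at bases 694 and 695 gave −0.08 and −0.05 and did not pass, whereas those that start at 708, 709 and 710 gave −0.16, −0.19 and −0.19 and passed. As the sequences above show, the first and the last of these probes share 44 of their 60 bases. The difference between probes was not tested.

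Of the 3 tested induced beta subunits PSMB8 and PSMB9 rose (66.7%, against 8.73% of all named genes), and the median of the 3 was 0.26. Their median was above 0 on each array, with 0.11, 0.13, 0.40 and 0.32. PSMB9, the induced counterpart of PSMB6, read 0.22, 0.13, 0.63 and 0.32, with a mean of 0.33 ± 0.22, which is 1.25-fold higher (adjusted p = 0.0419, limma). Array 3 lay far above the other arrays at this brightest probe. Another probe read 0.12, 0.07, 0.56 and 0.53, so that array 3 did not stand apart at every probe. The 5 overlapping probes of PSMB9 ran from 0.26 to 0.33 and 2 of them passed the threshold. PSMB8, the induced counterpart of PSMB5, read 0.10, 0.19, 0.40 and 0.35 (mean 0.26 ± 0.14, adjusted p = 0.0339, limma). It was the dimmest member tested, with a mean log2 signal of 7.15 against a median of 12.1 over the members. PSMB10, the induced counterpart of PSMB7, read 0.11, −0.02, 0.21 and 0.20 and did not pass (mean 0.12 ± 0.11, adjusted p = 0.131, limma). On Agilent's processed signals none of the 3 passed (limma, 2 at an unadjusted p under 0.05). The size of PSMB8 varied with the background correction, from 0.22 without one to 0.41 with offset 0 and 0.64 on the processed signals (adjusted p = 0.0866, 0.0353 and 0.0858, limma).

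Within an array the induced subunit was set against its constitutive counterpart, as a difference of log2 ratios and without a test. PSMB9 minus PSMB6 was 0.41, 0.28, 0.95 and 0.65. PSMB8 minus PSMB5 was 0.14, 0.26, 0.54 and 0.45. PSMB10 minus PSMB7 was 0.19, −0.04, 0.34 and 0.29. The induced member had the higher ratio on every array for PSMB9 and PSMB8 and on 3 of 4 arrays for PSMB10, and the differences of all 3 pairs were larger on arrays 3 and 4 than on arrays 1 and 2.

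**Figure D2:**
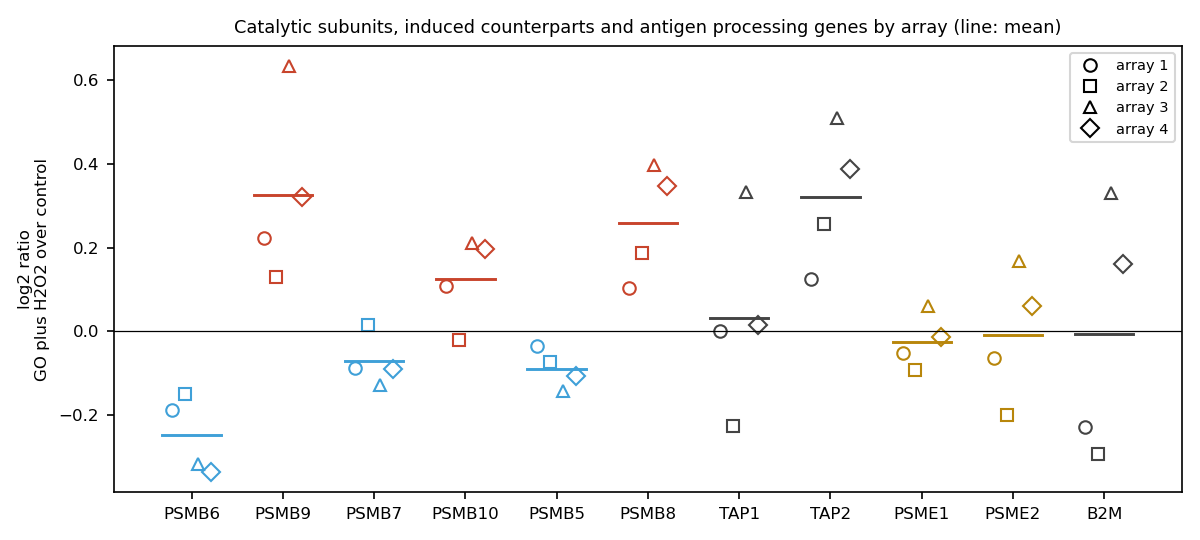
Log2 ratio of GO-treated over control cells (y axis) on each array (symbols) with the mean (line) for the catalytic subunits PSMB6, PSMB7 and PSMB5, their induced counterparts PSMB9, PSMB10 and PSMB8, and genes of antigen processing (x axis). The induced subunits and TAP2 lie above 0 on average, as does TAP1 by little (0.03). In all 3 induced subunits, TAP1, TAP2, PSME1, PSME2 and B2M arrays 3 and 4 lie above arrays 1 and 2.

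In the RefSeq gene order of the horse (assembly TB-T2T, in which all 46 symbols were found), PSMB8 lies between TAP1 and TAP2, with no protein-coding gene between it and either of them, and PSMB9 lies next to TAP1. TAP1 and TAP2 form the transporter that carries peptides made by the proteasome into the endoplasmic reticulum. TAP2 rose, with 0.13, 0.26, 0.51 and 0.39 on the arrays (mean 0.32 ± 0.17, adjusted p = 0.0285, limma). TAP1 read 0.00, −0.23, 0.33 and 0.02 and did not pass (mean 0.03 ± 0.23). Of the 7 tested genes of interferon response and antigen processing TAP2 alone passed the threshold, where 8.73% of all named genes rose. The median of the 7 was −0.007, and 4 of the 7 means were below 0. IRF1, the interferon-induced transcription factor, was at −0.02 ± 0.14 and B2M, the light chain of class I molecules, at −0.01 ± 0.30. PSME1 and PSME2 also neighbour each other, with 1 protein-coding gene between them.

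In the base of the 19S regulator 1 of 9 genes fell (11.1%, near the 8.65% of all named genes). Its 6 ATPases, PSMC1 to PSMC6, which form the ring that unfolds substrates, had a median of −0.004 and means from −0.05 to 0.08. None passed the threshold (limma, 0 at an unadjusted p under 0.05, and 0 by the methods' t-test before or after adjustment), and the 95% intervals of the single genes reached from −0.16 to 0.20. No ATPase kept 1 sign on all arrays. PSMC3 had the highest mean (0.08 ± 0.099), with 0.21, 0.11, 0.03 and −0.02, and PSMC4 the lowest (−0.05 ± 0.080), with −0.01, 0.04, −0.14 and −0.09. The means of all 13 tested core genes and of 6 of the 7 lid genes lay below that of PSMC4. PSMB2 was below it by little, at −0.054 against −0.053, and each ATPase was read by 1 probe. Taken within an array, the core median minus the ATPase median was −0.27, −0.20, −0.17 and −0.05 on arrays 1 to 4, which is below 0 on each but with array 4 close to it, and no test of this difference was run.

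The 3 other base subunits were scaffold and receptor proteins. PSMD1, the scaffold of the base, fell on both of its probes. The brighter read −0.25, −0.24, −0.31 and −0.33 (mean −0.28 ± 0.045, 1.22-fold lower, adjusted p = 0.0159, limma) and the other had a mean of −0.21 ± 0.11 (adjusted p = 0.0399, limma). PSMD2, the other large scaffold, was at −0.05 ± 0.079 on its brightest of 3 probes, and another probe was at 0.02, so that its sign depended on the probe. PSMD4, a ubiquitin receptor, was at −0.08 ± 0.084 and was dim for the complex (log2 signal 8.75).

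The lid had a median of −0.10 over 7 genes, with −0.13, −0.12, −0.14 and −0.17 on the arrays. Of its genes 3 fell (42.9%, against 8.65% of all named genes). PSMD14, the metalloprotease that cuts ubiquitin chains off the substrate, read −0.21, −0.22, −0.21 and −0.17, with a mean of −0.20 ± 0.025 (adjusted p = 0.0227, limma). PSMD12 read −0.31, −0.29, −0.14 and −0.23 (mean −0.24 ± 0.078, adjusted p = 0.0231, limma), and its other probe also passed (−0.26 ± 0.074). PSMD6 read −0.19, −0.12, −0.23 and −0.21 (mean −0.19 ± 0.050, adjusted p = 0.0303, limma). PSMD12 and PSMD6 are structural lid subunits. PSMD13 was split, with its brightest probe at −0.10 ± 0.045 (adjusted p = 0.116, limma) and 1 of its 4 probes past the threshold (−0.14 ± 0.015, adjusted p = 0.0439, limma), while all its probes were below 0. PSMD11 (−0.09 ± 0.12) and PSMD8 (−0.06 ± 0.042) did not pass, and PSMD3 was the one lid gene with a mean above 0 (0.07 ± 0.090).

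**Figure D3:**
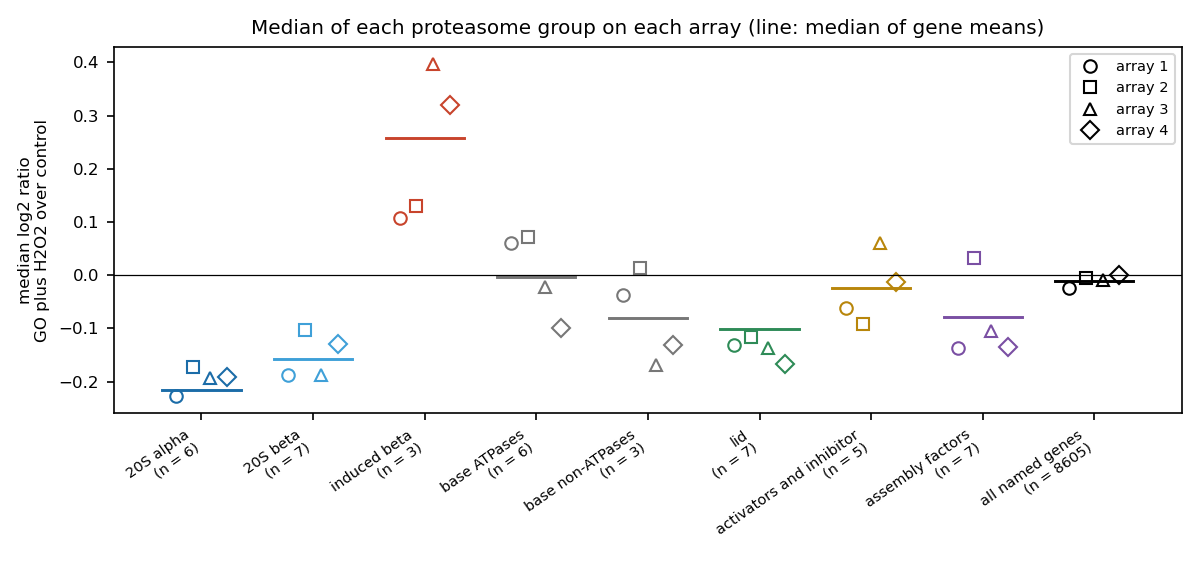
Median log2 ratio of GO-treated over control cells (y axis) in each group of proteasome genes and over the 8605 named genes tested (x axis), with 1 symbol per array and a line at the median of the gene means. The alpha, beta and lid medians are below 0 on all 4 arrays, the induced beta median is above 0 on all 4, and the ATPase median is above 0 on arrays 1 and 2 and below 0 on arrays 3 and 4.

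No activator or inhibitor of the core passed the threshold (0 of 5 by limma, 3 at an unadjusted p under 0.05, and 0 after and 2 before adjustment by the methods' t-test). Their median was −0.02. PSME4 (PA200), an activator found mainly in the nucleus, had a narrow spread, with −0.09, −0.12, −0.13 and −0.11 (mean −0.11 ± 0.019, adjusted p = 0.0767, limma). PSME3, the nuclear PA28 gamma, was at −0.14 ± 0.079 on its brighter probe (adjusted p = 0.0753, limma) and at −0.01 ± 0.12 on the other. PSMF1 (PI31), first described as an inhibitor of the core, was above 0 on all arrays, with 0.09, 0.18, 0.24 and 0.04 (mean 0.14 ± 0.088, adjusted p = 0.0872, limma). PSME1 and PSME2, the interferon-induced subunits of the cytoplasmic PA28 ring, were at −0.02 ± 0.065 and −0.01 ± 0.16. PSME2 read −0.06, −0.20, 0.17 and 0.06, so that its arrays fell on both sides of 0, and its 5 probes differed in sign (−0.02 to 0.02).

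Of the 7 assembly factors 1 fell, and their median was −0.08. That is 14.3%, near the 8.65% of all named genes and the 13.4% of those with a log2 signal of at least 10. PSMG2, the partner of PSMG1 in the chaperone pair that builds the alpha ring, read −0.23, −0.17, −0.28 and −0.22 (mean −0.23 ± 0.044, adjusted p = 0.0204, limma). PSMG1 had about the same mean but a wide spread, with −0.20, −0.03, −0.49 and −0.25, and did not pass (−0.24 ± 0.19, adjusted p = 0.0667, limma). POMP, the chaperone that guides the last steps of core assembly, was at 0.01 ± 0.081 (adjusted p = 0.842, limma) and bright (log2 signal 13.9), with all 3 probes between 0.01 and 0.03. The chaperones of the base, PSMD5, PSMD9 and PSMD10, did not pass, at −0.05 ± 0.15, −0.08 ± 0.094 and −0.10 ± 0.068. Probes differed in sign for PSMD5, whose other probe was at 0.07, and for PSMG3, whose brightest probe was at −0.05 and whose 5 probes ran from −0.07 to 0.03.

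**Figure D4:**
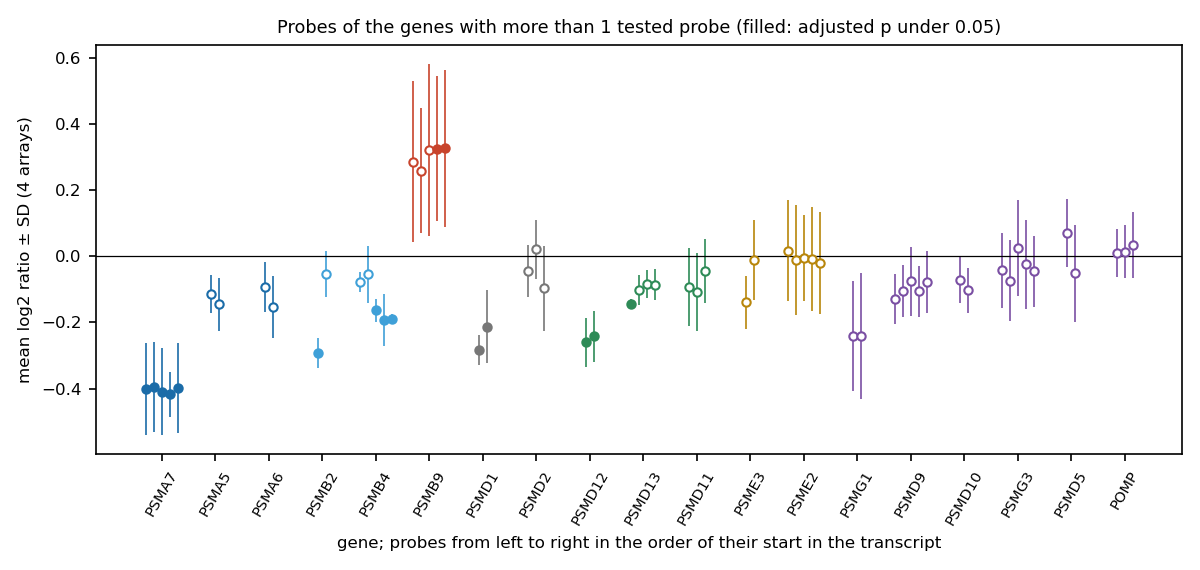
Mean log2 ratio ± SD over the 4 arrays (y axis) for each tested probe of the 19 genes with more than 1 tested probe (x axis), from left to right by start in the transcript. Filled points passed the threshold (limma adjusted p under 0.05), and 4 genes had probes on both sides of it (PSMB2, PSMB4, PSMB9 and PSMD13).

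Over the probes of all members 23 of 86 were called lower and 3 higher, and 67 had a mean below 0. Over all 24229 tested probes 7.59% were called lower and 9.49% higher, and 11922 had a mean below 0. By group, 8 of 12 alpha probes, 7 of 12 beta probes, 5 of 13 lid probes, 2 of 12 base probes and 1 of 20 assembly factor probes were called lower. Overlapping probes share their target and are not independent. Probe sign differed within 4 of the 19 genes with several tested probes (PSMD2, PSMD5, PSME2 and PSMG3), none of which was called.

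Genes that work with the proteasome were counted from lists outside the rule. For comparison, 8.65% of all named genes fell and 8.73% rose. Among named genes with a mean log2 signal of at least 10 the shares were 13.4% and 9.51%. The lists are short, and their counts were not tested against these shares. Of 7 tested partners of the 26S particle 3 fell and none rose. TXNL1, a thioredoxin bound to the regulator, read −0.17, −0.24, −0.31 and −0.25 (mean −0.24 ± 0.058, adjusted p = 0.0201, limma). ECPAS (ECM29), which holds core and regulator together, read −0.33, −0.31, −0.13 and −0.40 (mean −0.29 ± 0.12, adjusted p = 0.0221, limma). UCHL5, a deubiquitinase of the base, was at −0.15 ± 0.048 (adjusted p = 0.0461, limma). Its call was lost in 12 of the 17 alternative settings, among them no background correction (adjusted p = 0.0532, limma). USP14, the other deubiquitinase of the base, was at −0.11 ± 0.088 and did not pass. Of 8 tested shuttle factors and VCP partners 2 fell and 1 rose. VCP, the ATPase that extracts ubiquitin-tagged proteins from complexes, read −0.17, −0.11, −0.32 and −0.30 (mean −0.22 ± 0.10, adjusted p = 0.0332, limma). The shuttle RAD23B fell at its brightest probe (−0.41 ± 0.28, adjusted p = 0.0401, limma), with array 1 at −0.82 and the others between −0.33 and −0.23. It was at −0.27 without array 1. As a mean over its probes RAD23B was at −0.33 and did not pass (adjusted p = 0.0577, limma). The shuttle UBQLN1 rose at its brightest probe (0.20 ± 0.097, adjusted p = 0.0408, limma), and as a mean over its probes it was at 0.12 and did not pass (adjusted p = 0.0786, limma).

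None of the 5 tested genes of ubiquitin supply passed (limma, 1 at an unadjusted p under 0.05, and 0 after and 1 before adjustment by the methods' t-test). Their values ran from −0.05 ± 0.046 for UBA6, a ubiquitin-activating enzyme, to 0.15 ± 0.078 for RPS27A, which encodes a ubiquitin fusion. The transcription factor NFE2L1 drives proteasome genes when the protease is impaired. NFE2L1 was at −0.16 ± 0.13 (adjusted p = 0.0956, limma), and its partner MAFG at 0.21 ± 0.15 and its activating enzyme NGLY1 at −0.01 ± 0.14 did not pass either (0 of 3 by limma, 2 at an unadjusted p under 0.05, and 0 before or after adjustment by the methods' t-test).

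The arrays also ranked alike in many members. Ratios on arrays 3 and 4 were below those on both arrays 1 and 2 in 19 of the 44 members, against 19.8% of all named genes, and these were 8 of 9 base, 4 of 7 beta, 4 of 7 lid, 2 of 7 assembly factor and 1 of 6 alpha genes. All 3 induced beta genes, both PSME1 and PSME2, and 5 of the 7 tested genes of interferon response and antigen processing (B2M, TAP1, TAP2, ERAP1 and IRF1) had higher ratios on arrays 3 and 4 than on arrays 1 and 2, which held for 25.2% of all named genes. Over all members this higher order held for 9 of 44, among them also PSMA3, PSMD10, PSMD12 and PSMD13. This split was chosen after the values were seen and has no test. The arrays differ in place on the slide and may differ in culture and labelling, and these cannot be told apart.

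The members were brighter than most probes, with a median log2 signal of 12.1 against 8.97 over all tested probes, and 85.7% of the tested probes were dimmer than the member median. A bias of the ratio with signal was therefore removed in an alternative, by subtracting a running median over the signal. The member median was then −0.06 and 13 genes passed the threshold, 11 of them lower. No share over all named genes is given for this alternative, so that this count stands without a background. The medians were −0.20 for the alpha, −0.14 for the beta, −0.09 for the lid, −0.04 for the base and 0.26 for the induced beta genes.

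**Figure D5:**
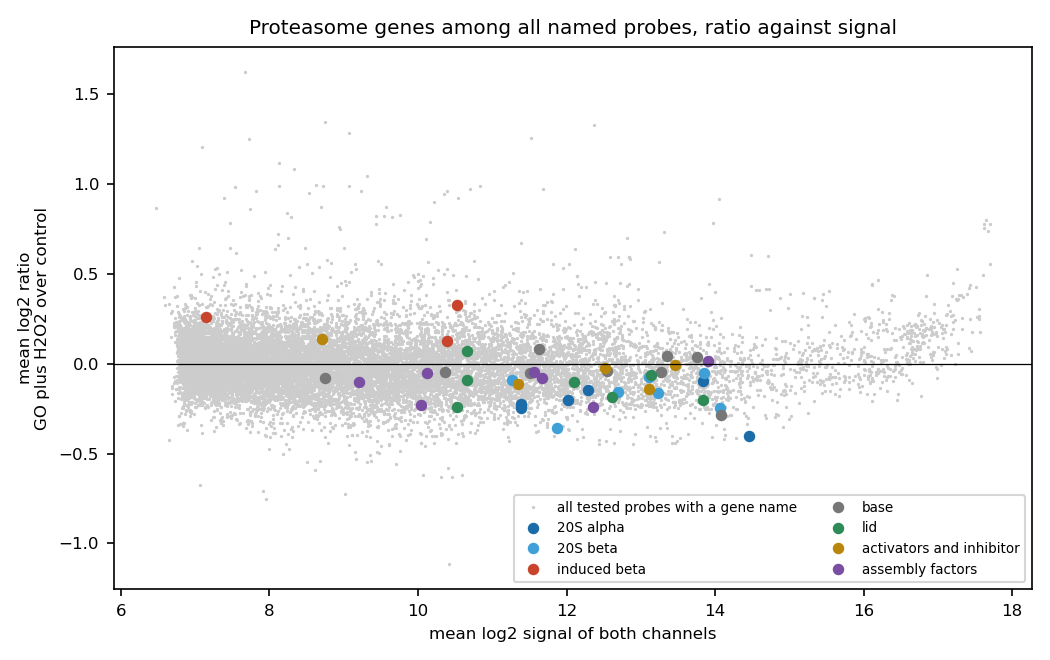
Mean log2 ratio of GO-treated over control cells (y axis) against the mean log2 signal of both channels (x axis) for all tested probes with a gene name (grey) and for the 44 proteasome genes at their brightest probe (coloured by group). Most proteasome genes lie at log2 signals above 10 and below a ratio of 0, and PSMB8 is the dimmest at 7.15.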

How the data were processed

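RNA of GO-treated and control cells was hybridised on 4 two-colour Agilent horse arrays. The authors deposited spot intensities (mean, background median and processed) and log10 ratios from Feature Extraction version 10.10.1.1, with probe positions in EquCab1, per the file headers. The deposited series matrix held the same log10 ratios (largest difference 0). The deposited processed signals are already corrected for background and dye.

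Mean intensities were corrected with normexp (offset 50) and normalised by loess within arrays (control spots at weight 0). Control and outlier spots were left out, and spots of a probe were averaged. A probe was kept where all 4 readings of 1 channel were well above background (24229 of 43603). The mean log2 ratio of red over green was tested against 0 with limma version 3.58.1 (R version 4.3.3) in a two-sided test, adjusted by Benjamini-Hochberg over all kept probes, at a threshold of 0.05. An exact permutation over 4 arrays cannot go below p = 0.125. The number of arrays limits the precision. The fit was tested on simulated data.

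Named genes were up to 4 called members of each group with the smallest p, the catalytic and induced beta subunits, POMP, PSME1 to PSME4 and PSMF1. PSMB4 and PSMD14 were added because the study lists them as differentially expressed from the same arrays. Also named were members whose probes differed in call or sign, and up to 3 called genes of each other list. Members outside this rule are named to account for their group and were chosen after their values were seen. The members and lists were chosen with earlier results of these data known. The 17 alternatives changed background correction, normalisation, filter, variance model, test, pairing of channels, choice of probe and arrays used. RefSeq served for gene names and order only. One leukocyte marker is not reported here.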

Additional observations from a re-analysis of the deposited data

Results flagged for a closer look

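In 3 of the 59 sets of 4 array values examined, 1 array lay apart from the rest by a larger share of the whole range than Dixon's 95% limit allows, and chance alone marks about 1 set in 20. In PSMB3 array 3 (−0.52) lay below the others (−0.32 to −0.28), with a gap of 0.867 of the range. In PSMC2 array 3 (0.03) lay above the others (−0.08 to −0.07), with a gap of 0.919. In RAD23B array 1 (−0.82) lay below the others (−0.33 to −0.23), with a gap of 0.833.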

How the results depend on the processing

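Under the 17 alternatives the member median stayed below 0, between −0.06 and −0.10. Under median centring 0 members passed the threshold in every group, and 12 probes of the whole table did. The methods' t-test also gave 0 members in every group and 5 probes. With no replicate block, in which the channels were taken as unpaired samples, 0 members, 594 probes and 1 gene of the other lists (TAP2) passed. Of the genes in the partner, shuttle, ubiquitin, NFE2L1 and antigen processing lists 7 passed in the report, against 3 on the processed signals and on the series matrix values, and 0 under median centring and by the methods' t-test. Of the beta genes 2 passed with offset 0 and under the running median. Of the induced beta genes 1 passed without background correction, with offset 0 and as a mean over probes, and 0 on the processed signals and series matrix values. Leaving out 1 array gave 0 to 13 members (alpha 0 to 3, beta 0 to 2, induced beta 0 to 2, base 0 to 1, lid 0 to 3, assembly factors 0 to 2), 0 to 6 genes of the other lists and 0 to 3898 probes, with 2 without array 1, 38 without array 3 and 0 without array 4. The cause was not tested. POMP turned to −0.0038 without array 1 and −0.0019 without array 2, and was at 0.054 without array 3. PSME2 turned to 0.016 on the processed signals and series matrix values, 0.047 under median centring, 0.019 under the running median, 0.010 without array 1 and 0.055 without array 2, and was at −0.067 without array 3. PSMB2 turned to 0.024 under median centring, and PSMD5 to 0.0099 as a mean over probes and 0.016 without array 4, with −0.099 without array 2. The other genes of the naming rule kept their sign throughout. PSMB8 rests on a dim signal, and PSMA8 and PSMB11 were too dim to be tested.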

Other observations

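Some proteasome genes were carried by probes without a gene symbol and so fell outside the rule, and they were found by their description after the values were seen. PSMD7, a lid subunit that partners PSMD14, was at −0.26 ± 0.079 (adjusted p = 0.0205, limma). The 5 probes of PSMG4, an assembly chaperone of the alpha ring, ran from −0.26 to −0.19, and all passed the threshold, with adjusted p from 0.0180 to 0.0330 (limma). A probe described as an alpha type subunit was at −0.20 ± 0.090 (adjusted p = 0.0371, limma). A second transcript of PSME1 was at −0.003 ± 0.13. PAAF1, a factor that binds the ATPases, was at −0.08 ± 0.087 (adjusted p = 0.250, limma).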
